A study of Rattus norvegicus with 8 samples.

Results

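The 10 genes described here carry glucose into the cell, commit it to glycolysis and carry lactate out: Slc2a1, Hk1, Hk2, Hk3, Pfkl, Pfkm, Pfkp, Pfkfb3, Ldha and Slc16a3. They were chosen by name, as 10 rows of a table of 37209 genes, and all 10 had enough counts to be tested. Whole vessel segments from Sprague Dawley (SD) rats, an outbred strain, were sequenced 1 week after surgery, as 4 grafts and 4 controls. A graft vein had been joined with cuffs into the divided left common carotid artery and so carried arterial blood, while the control was the animal's own jugular vein of the other side. The labels give neither the age nor the sex of the animals, and no genotype or drug. The extraction text of the labels names a brain region, so 12 brain markers were looked up, in CPM (counts scaled to a common library size). Their sum was 58.0 to 652 CPM in the controls and 16.5 to 67.0 CPM in the grafts, most of it Mbp, a myelin gene, at 647 and 592 CPM in controls 3 and 4. Of the neuron genes, Gad2 and Neurod6 had 0 counts in all 8 libraries, Snap25 reached 0.67 CPM, Syt1 3.09 CPM and Nrgn 18.1 CPM (control 1, against at most 3.73 CPM elsewhere). Myh11, the smooth muscle myosin, stood at 394 CPM or more in every library.

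Glucose enters most cells through facilitated carriers of the Slc2a family and is trapped by hexokinases, which add a phosphate. Phosphofructokinase, a tetramer built from the M, L and P subunits (Pfkm, Pfkl, Pfkp), then makes the committed step of glycolysis, and its strongest activator is a sugar bisphosphate made by enzymes such as Pfkfb3. Lactate dehydrogenase turns the end product pyruvate into lactate, and Slc16a3, the carrier MCT4, exports it. Endothelial cells and activated macrophages are known for a high glycolytic rate. Several of these genes are textbook targets of the hypoxia-inducible factors, whose binding motifs include ACGTG, the only form searched for below.

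In the grafts Hk3 and Slc16a3 were higher, Pfkp and Pfkfb3 were lower, and the other 6 genes did not pass the test. Hk3, the hexokinase of myeloid cells, averaged 0.248 ± 0.295 CPM in control veins (SD, n = 4, as for all levels given with ± below) and 44.8 ± 17.2 CPM in grafted ones. Slc16a3 went from 7.23 ± 4.00 to 25.3 ± 11.9 CPM. Pfkp fell from 230.02 ± 68.5 to 56.5 ± 18.1 CPM and Pfkfb3 from 149 ± 30 to 67.0 ± 23.8 CPM. The 4 that passed were also the 4 whose groups did not overlap. Calls rest on edgeR's quasi-likelihood test at an adjusted p under 0.05, with the Benjamini-Hochberg adjustment spanning 15464 tested genes. Of all genes tested, 42.3% passed (21% higher and 21.3% lower in the grafts), and the groups did not overlap for 40.6% (20.8% higher, 19.8% lower), so 4 of 10 is near the background. Fold changes are log2 values of graft over control, and the error after each is its SE. The median log2 fold change of the 10 genes was -0.02, beside 0.01 over all genes tested.

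**Figure D1:**
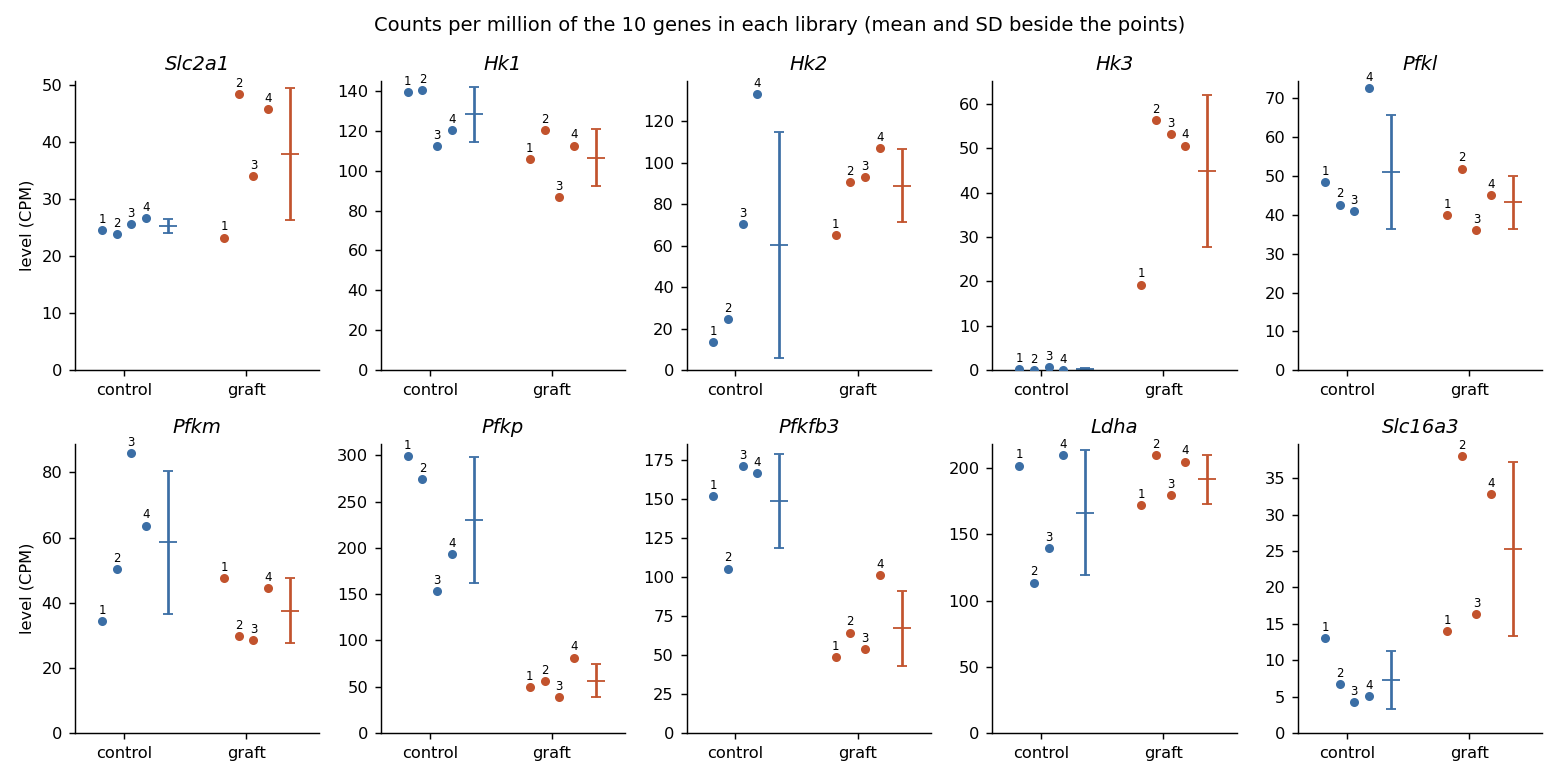
Level of each of the 10 genes in each library, in CPM on a linear axis that starts at 0, with 1 panel per gene. Points are libraries numbered as in the titles (controls blue, grafts orange), and the bar beside them is the mean with its SD. Groups are apart for Hk3, Slc16a3, Pfkp and Pfkfb3, and Hk2 spans 13.5 to 133 CPM among the controls alone.

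Total counts ran from 5981520 to 16061189 per library, and 3 counts corresponded to 0.182 to 0.56 CPM, which limits what can be said of rarer transcripts. All fold changes are relative to TMM scaling: scaling by library totals alone shifted the median over all tested genes from 0.01 to 0.23 (log2) and the calls from 3250 higher and 3288 lower to 4558 and 2164. Cell type marker lists moved with the groups. Summed macrophage markers stood at 230 to 339 CPM in the controls and 1222 to 1921 CPM in the grafts (11 of 12 rose), while smooth muscle markers went from 13527 to 22586 CPM down to 1884 to 3758 CPM (10 of 10 fell). Endothelial markers went from 3287 to 5058 CPM down to 1572 to 1911 CPM (5 of 10 fell), and adipocyte markers from 1199 to 7949 CPM down to 306 to 339 CPM (13 of 13 fell). Adipocyte markers were highest in controls 3 (3224 CPM) and 4 (7949 CPM). Skeletal muscle markers did not follow the groups: their sum was 105 to 122 CPM in controls 1 and 2 and graft 2, 939 CPM in control 4, 1545 CPM in graft 3 and 3357 to 4101 CPM in control 3, graft 1 and graft 4. The samples are whole tissue, so fewer cells of a type and less RNA per cell cannot be told apart in any value here. Results are therefore also given without controls 3 and 4 (29.1% of genes called) and without control 3, graft 1 and graft 4 (20.5% called) where these change a call.

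The sequence upstream of 3 members is shown because these genes are the textbook pair of glucose uptake and lactate formation under low oxygen (Slc2a1, Ldha) and the lactate exporter that rose (Slc16a3). The bases are the 250 before the start annotated by RefSeq on GRCr8, 5′ to 3′ on the gene's own strand, and capitals mark ACGTG on either strand.
Ldha (chr1:106507842-106508091, plus strand): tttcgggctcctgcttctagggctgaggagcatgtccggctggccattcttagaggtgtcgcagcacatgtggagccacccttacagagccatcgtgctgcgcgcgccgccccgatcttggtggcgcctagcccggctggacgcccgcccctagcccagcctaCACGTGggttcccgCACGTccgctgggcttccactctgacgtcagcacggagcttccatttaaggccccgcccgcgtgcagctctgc
Slc2a1 (chr5:138002272-138002521, plus strand): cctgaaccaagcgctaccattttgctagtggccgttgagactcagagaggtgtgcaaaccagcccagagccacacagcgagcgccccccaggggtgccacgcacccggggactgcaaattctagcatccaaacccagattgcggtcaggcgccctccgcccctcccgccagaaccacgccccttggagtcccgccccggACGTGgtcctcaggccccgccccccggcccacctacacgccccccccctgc
Slc16a3 (chr10:106712078-106712327, plus strand): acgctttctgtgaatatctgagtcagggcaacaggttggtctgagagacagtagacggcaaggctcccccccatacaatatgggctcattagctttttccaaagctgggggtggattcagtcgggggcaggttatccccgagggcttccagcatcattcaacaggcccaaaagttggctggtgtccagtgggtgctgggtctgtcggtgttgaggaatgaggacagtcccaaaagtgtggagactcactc
Ldha held 3 matches, of which a pair overlaps in the palindrome CACGTG, Slc2a1 held 1 and Slc16a3 held 0. Windows of 30 bases show the match in a gene that fell (Pfkfb3) and in one that rose (Hk3).
Pfkfb3 (chr17:71944879-71944908, plus strand): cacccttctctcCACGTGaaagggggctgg
Hk3 (chr17:9604921-9604950, plus strand): ttgtggggaagtaCACGTtcatgaattagc
Pfkfb3 held 2 matches that overlap in the palindrome CACGTG, which starts 42 bases before the annotated start. The Hk3 match starts 97 bases before the annotated start of Hk3. ACGTG was found in 16.6% and CACGTG in 5.6% of all 33469 promoter windows of this length. Among the members, Pfkm and the second of the Hk1 starts in the table also held 1 match, and Hk2, Pfkl and Pfkp held none. A match is a string of letters, and it tells nothing of binding. Whether a match bears on the level of a gene was not tested.

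Among the glucose carriers Slc2a1 did not pass, while Slc2a4 fell and Slc2a6 rose. Slc2a1, the broadly expressed carrier GLUT1, read 24.6, 23.9, 25.6 and 26.7 CPM across controls 1 to 4 against 23.2, 48.3, 34.0 and 45.7 CPM across grafts 1 to 4. The controls lay within 3 CPM of each other, 3 grafts were above all of them, and graft 1 was below them all. Its log2 fold change was 0.59 ± 0.22 (SE; 95% interval 0.10 to 1.07; edgeR adjusted p = 0.0519), just short of the threshold. It passed in 4 of 17 alternatives. These were without graft 1, the lowest graft (log2 fold change 0.78, edgeR adjusted p = 0.00628), with library totals alone (0.0144), with upper-quartile factors (0.0353) and by DESeq2 (0.0437). In the rest it stayed uncalled, with an edgeR adjusted p of up to 0.142 (without controls 3 and 4).

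Slc2a4, the insulin-responsive carrier GLUT4 of fat and muscle, is the partner of Slc2a1 in the ratios. It read 71.4, 48.4, 48.9 and 108 CPM across controls 1 to 4 against 11.0, 4.73, 7.84 and 8.47 CPM across grafts 1 to 4. Its log2 fold change was -3.10 ± 0.33 (SE; edgeR adjusted p = 0.000117), beside the fall of adipocyte markers given above, whose part in this value was not tested. Slc2a6, a carrier of leukocytes, rose from 0.706 ± 0.365 to 15.99 ± 2.86 CPM, a log2 fold change of 4.39 ± 0.33 (edgeR adjusted p = 2.62e-05). Of the 9 tested genes among the other glucose carriers and their regulator Txnip, 3 rose (Slc2a6, Slc2a8, Slc2a9), 2 fell (Slc2a4, Txnip) and 4 did not pass. Both without controls 3 and 4 and without the 3 libraries highest in muscle genes, 1 rose (Slc2a6) and 1 fell (Slc2a4): Slc2a8 then had an edgeR adjusted p of 0.0569 and 0.15, and Slc2a9 of 0.102 and 0.135. Txnip, which promotes removal of carriers from the cell surface, was the most abundant of this list and fell by 0.68 ± 0.20 (edgeR adjusted p = 0.0197). Its call was lost with library totals alone (edgeR adjusted p = 0.105), without graft 1 (0.0627), without graft 2 (0.0575), without controls 3 and 4 (0.162) and without the 3 libraries highest in muscle genes (0.198).

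Among the hexokinases, Hk3 was nearly absent from control veins. It had 3, 1, 8 and 0 counts in controls 1 to 4 and 318, 749, 665 and 788 counts in grafts 1 to 4. In CPM these are 0.225, 0.0996, 0.669 and 0 against 19.3, 56.3, 53.2 and 50.6. Every graft was above every control, and graft 1 was the lowest of the grafts. The log2 fold change was 7.23 ± 0.58 (SE; 95% interval 5.92 to 8.54; edgeR adjusted p = 3.43e-05), the largest rise of the 10 genes, and it passed under all 17 alternative settings. Summed macrophage markers were also lowest in graft 1 among the grafts (1222 CPM, against 1670 to 1921 CPM in grafts 2 to 4). Neutrophils also make Hk3. Summed neutrophil markers were 8.0 to 22.2 CPM in the controls and 21.3, 99.98, 55.3 and 15.7 CPM in grafts 1 to 4 (of 5 tested, 3 rose and 1 fell). Mpo, an early granulocyte enzyme, made up 16.99 CPM of the sum in control 4 and stood at no more than 0.385 CPM in the grafts. Csf3r, the receptor of the granulocyte growth factor, stood at 17.1, 56.7, 38.2 and 7.64 CPM in grafts 1 to 4 and at most at 2.77 CPM in the controls. The part of macrophages and of neutrophils in the rise was not tested. Hk3 overlaps Unc5a in the annotation, and Unc5a stayed between 0 and 0.48 CPM in the grafts.

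Hk1, the hexokinase of most tissues, read 139, 141, 112 and 120.4 CPM across controls 1 to 4 against 106, 120.3, 86.9 and 113 CPM across grafts 1 to 4. The groups overlapped, and its log2 fold change of -0.27 ± 0.13 (SE; 95% interval -0.57 to 0.03) did not pass (edgeR adjusted p = 0.131). Hk2, the hexokinase of insulin-sensitive and of proliferating tissues, read 13.5, 24.7, 70.4 and 133 CPM across controls 1 to 4 against 65.2, 90.7, 93.0 and 107 CPM across grafts 1 to 4. Controls 1 and 2 were below all grafts, control 3 lay among them and control 4 above them. Over all libraries the log2 fold change was 0.57 ± 0.58 (SE; 95% interval -0.72 to 1.86; edgeR adjusted p = 0.453). Controls 3 and 4, the libraries highest in adipocyte markers, were also the controls highest in Hk2. Without them, with controls 1 and 2 alone left, Hk2 was higher in the grafts by 2.23 ± 0.31 (edgeR adjusted p = 0.00189). It passed in only 1 of 17 alternatives, this one. Leaving out the highest controls favours a rise, so that p-value is no separate evidence of one. Cell division markers were also higher in the grafts (265 to 442 CPM, against 90.3 to 138 CPM, with 7 of 8 called). The part of adipocytes and of dividing cells in the level of Hk2 was not tested.

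**Figure D2:**
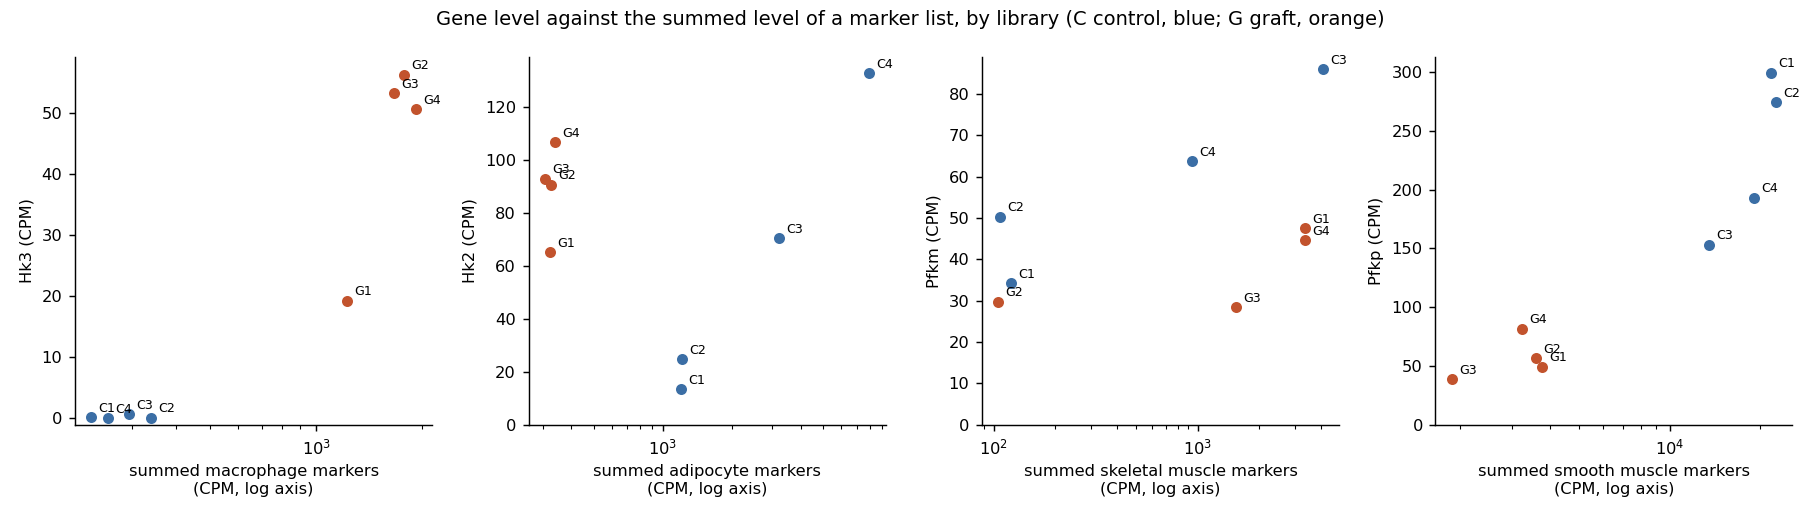
Level of Hk3, Hk2, Pfkm and Pfkp (CPM, linear axis) against the summed level of a marker list (CPM, log axis) in each of the 8 libraries. Points are single libraries, C for control and G for graft. Hk3 parts the groups together with macrophage markers, Hk2 is highest among the controls in control 4 with the most adipocyte markers, and Pfkm is highest in control 3 with the most skeletal muscle markers.

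Of the phosphofructokinase subunits Pfkp fell, and Pfkl and Pfkm did not pass. Pfkp, the platelet-type subunit, read 299, 275, 153 and 193 CPM across controls 1 to 4 against 49.3, 56.3, 38.9 and 81.5 CPM across grafts 1 to 4. All grafts were below all controls, by a log2 fold change of -2.03 ± 0.27 (SE; 95% interval -2.64 to -1.41; edgeR adjusted p = 0.000413), and the fall passed under all 17 alternatives. Controls 1 and 2, with the highest Pfkp, also had the highest summed smooth muscle markers (21769 and 22586 CPM, against 13527 and 19091 CPM in controls 3 and 4). Graft 3, with the lowest Pfkp, had the lowest smooth muscle sum (1884 CPM). Graft 4 departed from this order, with the highest Pfkp of the grafts but a smooth muscle sum of 3231 CPM, below grafts 1 and 2 (3758 and 3603 CPM). Summed endothelial markers were also highest in controls 1 and 2 (5058 and 4530 CPM, against 3287 and 3381 CPM), but Vwf alone made up 3583 CPM in control 1. Tie1, Egfl7 and Esam were also highest among the controls in control 1, whereas Pecam1, Cdh5, Tek, Kdr, Emcn and Erg were lowest there. The part of either cell type in the fall of Pfkp was not tested.

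Pfkl, the liver-type subunit, read 48.4, 42.6, 40.9 and 72.6 CPM across controls 1 to 4 against 39.9, 51.9, 36.1 and 45.1 CPM across grafts 1 to 4. The groups overlapped widely, with a log2 fold change of -0.24 ± 0.20 (SE; 95% interval -0.68 to 0.21; edgeR adjusted p = 0.369). Pfkm, the muscle subunit, read 34.2, 50.3, 85.9 and 63.7 CPM across controls 1 to 4 against 47.5, 29.7, 28.4 and 44.6 CPM across grafts 1 to 4. Its log2 fold change of -0.64 ± 0.28 (SE; 95% interval -1.27 to -0.00) did not pass (edgeR adjusted p = 0.0966).

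The level of Pfkm has to be read beside attached skeletal muscle, of whose 21 tested markers 2 were called. Pfkm was highest in control 3, the library with the most skeletal muscle markers (4101 CPM), where Myh4, the fast myosin heavy chain, reached 819 CPM against at most 91.3 CPM elsewhere. Among the grafts it was highest in grafts 1 and 4, with muscle sums of 3358 and 3357 CPM, and lower in graft 2, with 105 CPM. Graft 3 departed from this order, with a muscle sum of 1545 CPM and the lowest Pfkm of all libraries. Without control 3, graft 1 and graft 4, which leaves 3 controls and 2 grafts, the log2 fold change of Pfkm was -0.75 ± 0.29 (SE; edgeR adjusted p = 0.112). It was -0.83 without control 1 (edgeR adjusted p = 0.0204), the single alternative in which it passed, -0.39 without control 3 (0.27) and -0.16 without controls 3 and 4 (0.692). Senp1 overlaps Pfkm in the annotation, and its log2 fold change was 0.26 ± 0.16 (edgeR adjusted p = 0.222).

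Pfkfb3 makes the activator of phosphofructokinase and is known for its role in endothelial glycolysis. It read 152, 105, 171 and 167 CPM across controls 1 to 4 against 48.7, 64.4, 53.7 and 101 CPM across grafts 1 to 4. All grafts were below all controls, although graft 4 came within 5 CPM of control 2. The log2 fold change was -1.15 ± 0.25 (SE; 95% interval -1.70 to -0.60; edgeR adjusted p = 0.00481). Without controls 3 and 4 it was -0.94 and missed the threshold (edgeR adjusted p = 0.0518), while it passed under the other 16 alternatives. Summed endothelial markers were lower in every graft than in every control, as given above. Among the controls the order differed: controls 3 and 4 had the lowest endothelial sums (3287 and 3381 CPM) and the highest Pfkfb3. Control 2, with an endothelial sum of 4530 CPM, had the lowest Pfkfb3 of the controls. Graft 4 was the highest graft in both. Vwf alone made up 3583 CPM of the endothelial sum in control 1 and 649 CPM in graft 4, so the order of these sums leans on that gene. The part of endothelial cells in the fall of Pfkfb3 was not tested.

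Of the other enzymes that set phosphofructokinase activity, Pfkfb2 averaged 46.4 ± 10.2 CPM among controls and 47.6 ± 2.64 CPM among grafts (log2 fold change 0.03 ± 0.15, edgeR adjusted p = 0.873). Pfkfb1, the liver and muscle form, fell by 2.22 ± 0.51 (edgeR adjusted p = 0.00713) and was highest in controls 3 and 4 (23.9 and 31.5 CPM, against 7.94 and 6.07 CPM in controls 1 and 2). It missed the threshold without controls 3 and 4 (log2 fold change -0.93, edgeR adjusted p = 0.055) and without the 3 libraries highest in muscle genes (-1.77, 0.149). Pfkfb4 did not pass (0.22 ± 0.38, edgeR adjusted p = 0.677).

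Of the lactate genes Slc16a3 rose and Ldha did not pass. Ldha, the dehydrogenase subunit that favours lactate, read 202, 114, 139.96 and 210.2 CPM across controls 1 to 4 against 172, 209.7, 179.9 and 205 CPM across grafts 1 to 4. The grafts lay inside the range of the controls. Its log2 fold change was 0.20 ± 0.20 (SE; 95% interval -0.24 to 0.64; edgeR adjusted p = 0.431). Ldhb, the subunit of oxidative tissue, read 37.7, 29.4, 79.0 and 92.6 CPM across controls 1 to 4 against 17.5, 26.1, 14.5 and 16.2 CPM across grafts 1 to 4, and it fell by 1.68 ± 0.37 (edgeR adjusted p = 0.0055; 0.125 without the 3 libraries highest in muscle genes). Reads of Ldha may be shared with near-identical copies elsewhere in the genome, so its level is uncertain.

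Slc16a3, the lactate exporter of strongly glycolytic cells, read 13.0, 6.67, 4.18 and 5.04 CPM across controls 1 to 4 against 13.96, 38.01, 16.3 and 32.8 CPM across grafts 1 to 4. The groups did not overlap, but graft 1 was within 1 CPM of control 1. The log2 fold change was 1.78 ± 0.43 (SE; 95% interval 0.81 to 2.76; edgeR adjusted p = 0.00911). It missed the threshold without controls 3 and 4 (1.35, edgeR adjusted p = 0.0768) and without the 3 libraries highest in muscle genes (1.71, 0.0564), and passed under the other 15 alternatives. Control 1, the highest control, also had the most red cell markers (5937 CPM, against 879 to 1545 CPM in controls 2 to 4), of which 6 of 7 fell in the grafts. Macrophage markers were lowest among the controls in control 1 (230 CPM, against 256 to 339 CPM) and higher in all grafts. The part of blood and of macrophages in the level of Slc16a3 was not tested. Csnk1d overlaps Slc16a3 in the annotation and stood at -0.03 ± 0.14 (edgeR adjusted p = 0.881). Slc16a1, the carrier MCT1 that also takes lactate up, stood at 39.9 ± 16.8 CPM among controls and 29.1 ± 7.81 CPM among grafts and did not pass (log2 fold change -0.45 ± 0.30, edgeR adjusted p = 0.256).

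Ratios of 2 related genes within a library do not depend on how libraries are scaled, and their change between groups does not depend on gene length. For 9 such pairs the log2 ratio of counts was compared between the groups by a two-sided exact permutation test over the 8 libraries, adjusted by Benjamini-Hochberg over the 9. The smallest p that 4 against 4 allows is 0.0286. Groups did not overlap for 6 pairs, and each of these had an exact p of 0.0286 and an adjusted p of 0.0429. As all 6 sit at the smallest p, that adjusted value is set by how many of the 9 pairs were apart. For single genes, the groups did not overlap for 40.6% of all genes tested. Several pairs share a gene, so the 9 are not independent. Each of the 6 also holds a gene called on its own above (Hk3, Slc16a3, Pfkp, Pfkfb3, Slc2a4 or Ldhb). Their p-values are therefore not evidence separate from those calls.

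Hk3 to Hk1 moved most, from a mean log2 ratio of -9.14 ± 1.33 in control veins to -1.35 ± 0.76 in the grafts. With 0 to 8 Hk3 counts in the controls, that shift of 7.79 depends on the 0.5 added to each count, and it was 6.02 with 5 added. Slc2a1 to Slc2a4 went from -1.37 ± 0.50 to 2.24 ± 0.94: GLUT1 had fewer counts than GLUT4 in all 4 controls and more in all 4 grafts. Slc16a3 to Slc16a1 went from -2.51 ± 1.18 to -0.29 ± 0.49, with graft 1 (-1.002) next to control 1 (-1.08). Each of these ratios rose.

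Ldha to Ldhb rose from 1.59 ± 0.72 to 3.40 ± 0.31, that is from 1.77 to 5.36 Ldha counts per Ldhb count in the controls to 8.01 to 12.6 in the grafts, while Ldha itself did not pass and Ldhb fell. Pfkp to Pfkl fell from 2.16 ± 0.61 to 0.35 ± 0.35. Controls held 2.66 to 6.43 Pfkp counts per Pfkl count and grafts 1.08 to 1.81. Pfkfb3 to Pfkfb2 fell from 1.68 ± 0.34 to 0.43 ± 0.50. The differences for Pfkp to Pfkm (-1.43, exact p = 0.0857, adjusted 0.11), Hk2 to Hk1 (1.33, exact p = 0.257, adjusted 0.289) and Pfkl to Pfkm (0.38, exact p = 0.429, adjusted 0.429) did not pass, and their groups overlapped. In the Pfkp to Pfkm ratio the lowest control was control 3 (0.83), where Pfkm was highest.

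**Figure D3:**
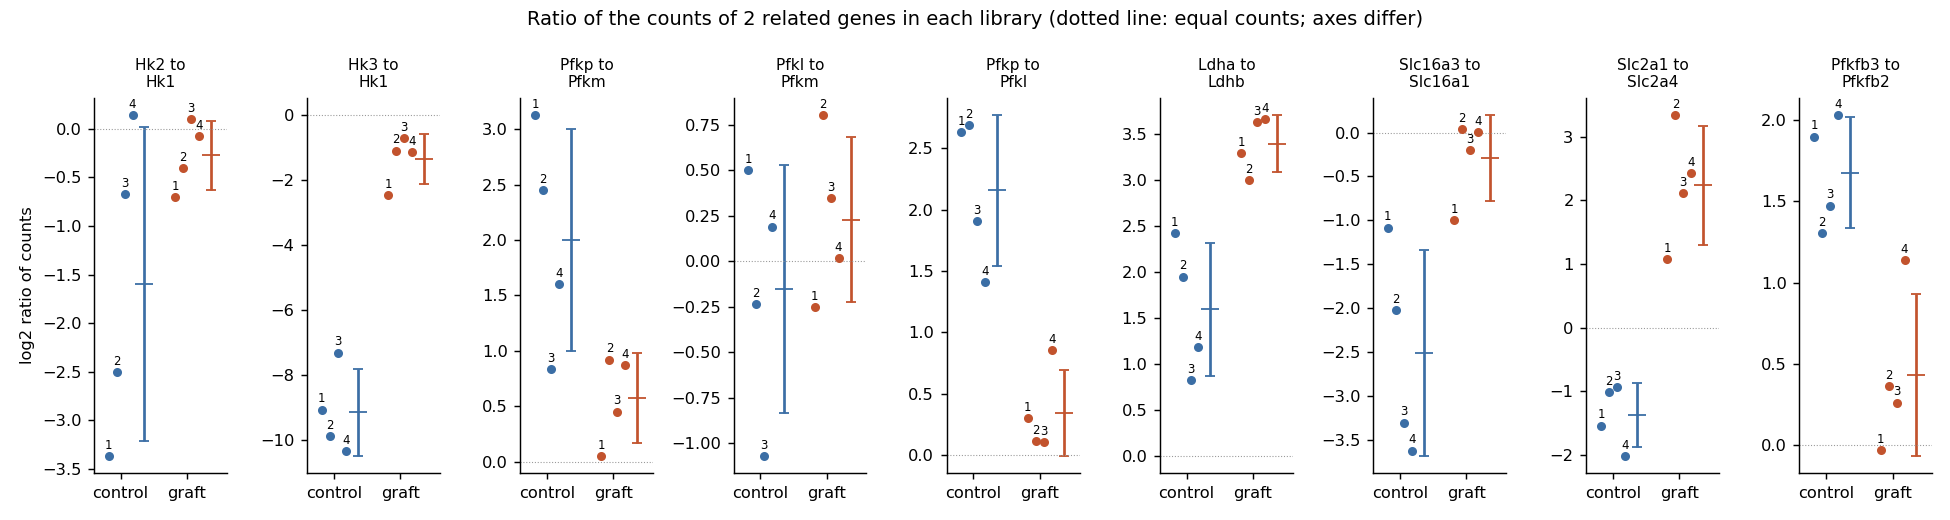
Log2 ratio of the counts of 2 related genes in each library, 1 panel per pair, with libraries numbered and the mean with SD beside the points. The dotted line marks equal counts and each panel has its own axis. The groups are apart in 6 of 9 panels, and in the panel of Slc2a1 to Slc2a4 they lie on opposite sides of the dotted line.

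The remaining steps of glycolysis, from Gpi to pyruvate kinase, had 12 tested genes. Aldoc and Bpgm fell, Gapdh rose, and 9 did not pass; the median log2 fold change was 0.23. Aldoa, the most abundant of them, averaged 325 ± 88.4 CPM among controls and 298 ± 35.5 CPM among grafts (-0.13 ± 0.20, edgeR adjusted p = 0.637). Aldoc, an aldolase best known from brain, fell from 22.0 ± 5.57 to 3.25 ± 0.528 CPM, a log2 fold change of -2.75 ± 0.23 (edgeR adjusted p = 3.78e-05). Gapdh passed upwards (0.74 ± 0.23, edgeR adjusted p = 0.0269), but its reads are easily shared with copies elsewhere in the genome, and the call was lost without control 2 (0.0612), control 3 (0.0685), graft 3 (0.0608) or the 3 libraries highest in muscle genes (0.174). Bpgm, an enzyme of red cells, was named after its values were seen, and stood at 136 CPM in control 1, where red cell markers were highest, and at 57.8 to 72.7 CPM in the other controls. Without controls 3 and 4, 3 rose and 2 fell of 13 tested, and without the 3 libraries highest in muscle genes 0 rose and 1 fell of 11 (edgeR; 0 rose and 2 fell at an unadjusted p under 0.05).

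Genes around pyruvate mostly fell: 13 of 20 tested were lower, beside 21.3% of all genes tested. Pdk3 and Emb (a partner of lactate carriers) were higher, and the list median was -1.04. Pdha1, of the pyruvate dehydrogenase complex that sends pyruvate to the mitochondrial cycle, read 172, 310, 356 and 601 CPM across controls 1 to 4 against 116, 114, 78.6 and 127 CPM across grafts 1 to 4 (-1.72 ± 0.33, edgeR adjusted p = 0.00286). Pdk1, a kinase that switches this complex off, also fell (-1.54 ± 0.21, edgeR adjusted p = 0.000477), whereas Pdk3, another such kinase, rose from 15.6 ± 0.443 to 27.4 ± 3.94 CPM (0.82 ± 0.14, edgeR adjusted p = 0.00159). Pdha1 and Pdk1 were both highest in control 4, where adipocyte markers were highest. Without controls 3 and 4, 9 of 21 fell and 1 rose, with a median of -0.50, and without the 3 libraries highest in muscle genes 6 of 20 fell and 1 rose, with a median of -1.15.

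In the pentose phosphate branch, which drains glucose phosphate into NADPH and ribose, 5 of 7 tested genes rose, beside 21% of all genes tested. EdgeR, DESeq2 and limma voom each called 0 of the branch lower, and edgeR had 0 lower at an unadjusted p of 0.05. H6pd, an enzyme of the endoplasmic reticulum, rose from 40.6 ± 8.94 to 76.4 ± 5.40 CPM, a log2 fold change of 0.91 ± 0.16 (edgeR adjusted p = 0.00142). Tkt, the most abundant of the branch, did not pass (-0.37 ± 0.51, edgeR adjusted p = 0.588), with controls from 100.1 to 572 CPM, and was higher in the grafts without controls 3 and 4 (0.87, edgeR adjusted p = 0.0278). The rises numbered 5 without controls 3 and 4 and 1 without the 3 libraries highest in muscle genes (4 at an unadjusted p under 0.05). They numbered 2 without control 2, and 3 without control 3, graft 3 or graft 4. Of the 2 other tested genes that add or remove the phosphate of glucose, Adpgk rose by 0.60 ± 0.12 (edgeR adjusted p = 0.00324; 0.0722 without the 3 libraries highest in muscle genes) and G6pc3 by 0.55 ± 0.20 (edgeR adjusted p = 0.0493). G6pc3 lost its call in 10 alternatives.

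Of 20 tested genes of the hypoxia response and its transcription factors, 12 were lower in the grafts, beside 21.3% of all genes tested. The other 8, Hif1a among them, did not pass, and the list median was -0.58. By edgeR 0 of the list were higher, whether p was adjusted or not, as by DESeq2 and limma voom. Without control 1 the test called 1 higher. Egln1, the oxygen sensor that marks the factors for destruction, fell from 54.8 ± 5.86 to 25.3 ± 1.09 CPM (-1.11 ± 0.12, edgeR adjusted p = 0.000114). Bnip3l, a mitophagy receptor and known target, fell from 254 ± 9.45 to 158 ± 6.68 CPM (-0.68 ± 0.10, edgeR adjusted p = 0.000493). Epas1, the endothelial factor HIF-2 alpha and the most abundant of the list, fell from 512 ± 70.5 to 307 ± 24.2 CPM (-0.74 ± 0.14, edgeR adjusted p = 0.00226). Of 10 endothelial markers 5 fell beside it and 5 did not pass, and their part was not tested. Falls within the hypoxia list numbered 7 with library totals alone, 8 without controls 3 and 4 and 7 without the 3 libraries highest in muscle genes.

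**Figure D4:**
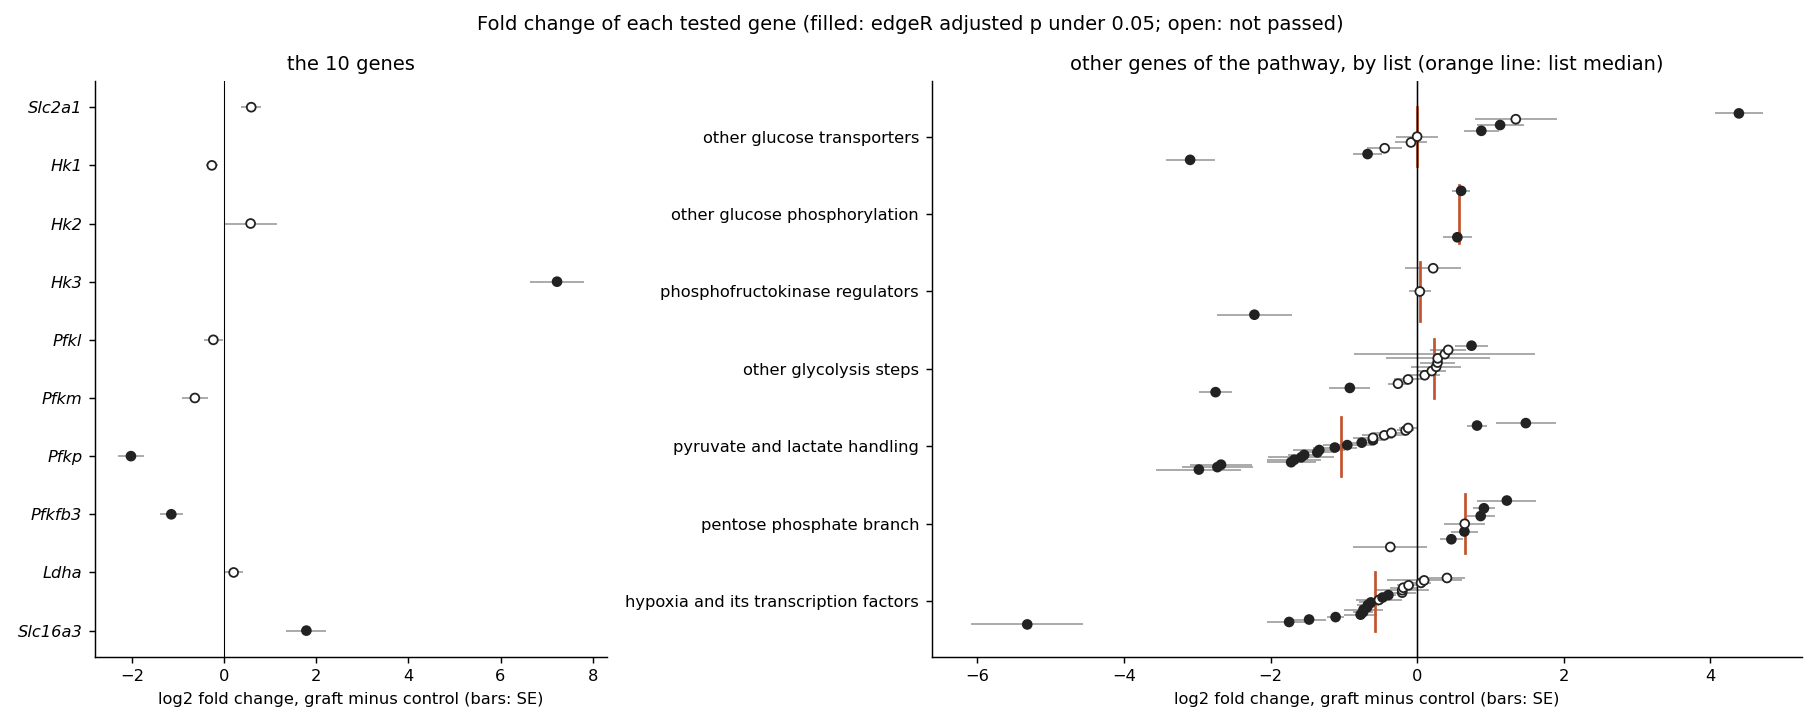
Log2 fold change of graft minus control with its SE, for the 10 genes (left) and for the other tested genes of the pathway by list (right, with the list median in orange). Filled points passed the edgeR test at an adjusted p under 0.05. The genes around pyruvate (median -1.04) and of hypoxia (-0.58) lie mostly left of 0 and those of the pentose phosphate branch (0.65) mostly right of it. The point farthest left is Hif3a, which had 3 counts in graft 1 and 0 in the other grafts, so its fitted value is no bound.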

How the data were processed

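Total RNA of 4 graft and 4 control veins went into libraries made by Illumina's protocol, per the labels. The submitters' processing notes name HISAT2 2.0.4 and the build Rnor_6.0. They name no read counter, annotation release or strand setting. The authors deposited whole-number read counts per gene, not normalized, in 1 column per sample title. Without a known strand setting, overlapping genes cannot be told apart.

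Under R 4.3.3, edgeR 4.0.16 was run on these counts: filterByExpr (minimum count 10) kept 15464 of 37209 genes, libraries were scaled by TMM, and glmQLFit and glmQLFTest gave p-values, adjusted over all genes tested and called at 0.05. The SE is the absolute log2 fold change over the square root of F, and 95% intervals use the test's degrees of freedom. Ratios used counts plus 0.5. Alternatives were other scalings, no filter, DESeq2 1.42.0, limma 3.58.1 voom, a replicate block, and fits with libraries left out.

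Title numbers run from 1 to 4 in both groups, but source names carry other numbers, and same-numbered libraries did not deviate together (r from -0.07 to 0.18), so the main fit is unpaired. No library repeated another of its group (chi-square per degree of freedom at least 21.8). The labels do not state that samples of a group are separate animals, so p-values measure the spread between these libraries, which may be technical.

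The members and lists were chosen with earlier results of these data known. The text names the members, the pairs' partners and, per list, the 2 genes with the smallest p (1 per direction where both passed) and the most abundant. One gene that the rule names is not reported here. Of 90 other pathway genes listed, 87 had a row, 3 of them under another symbol of the same gene, and 73 were tested. Promoter bases come from RefSeq (GRCr8), where all 10 members matched. The procedure was also run on simulated counts with 200 changed genes. That is far fewer than were called in these data, so the run does not vouch for the calls here.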

Additional observations from a re-analysis of the deposited data

Results flagged for a closer look

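In 80 groups of 4 libraries, the library farthest out was compared with the rest by Dixon's test, and 4 groups held 1 library past the test's 95% critical value. Chance flags about 1 in 20 groups. Hk3 in graft 1, at 19.3 CPM, stood below the other grafts at 50.6 to 56.3 CPM (gap over range 0.847). Pfkfb2 in control 3, at 61.7 CPM, stood above the other controls at 40.7 to 42.6 CPM (0.907). Egln1 in control 1, at 46.1 CPM, stood below the other controls at 57.3 to 58.6 CPM (0.892). Gapdh in graft 3, at 84.3 CPM, stood above the other grafts at 73.1 to 73.8 CPM (0.942).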

How the results depend on the processing

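Hk3 and Pfkp kept direction and call in all 17 alternatives, with log2 fold changes from 6.96 to 8.54 and from -2.41 to -1.81. Hk1, Pfkl and Ldha kept direction and stayed uncalled in all 17. Leaving out 1 library at a time gave 2845 to 4054 genes higher and 2742 to 3786 lower, 2 to 3 members higher and 2 to 3 lower, and 8 to 13 pathway genes higher and 25 to 31 lower, against 13 and 30 with all libraries (8 higher without control 2). Library totals alone gave 2164 genes lower. Without controls 3 and 4, 1 member was lower. Without control 3, graft 1 and graft 4, an alternative chosen after seeing the data, 1742 genes were higher and 1476 lower, 1 member was higher, and 3 pathway genes were higher and 15 lower. That fit has 3 controls and 2 grafts. Among named genes that did not pass, direction turned for Aldoa with library totals alone (0.10), for Tkt (0.87) and Slc16a1 (0.087) without controls 3 and 4, and with 1 library left out for Pfkfb4 (range -0.0075 to 0.44, below 0 without control 4), Pfkfb2 (-0.027 to 0.20, below 0 without control 1 or control 4, at -0.015), Aldoa (-0.26 to 0.026, above 0 without control 4) and Tkt (-0.62 to 0.48, above 0 without control 4). The cause was not tested. With the replicate block, 3042 genes were higher and 2860 lower and 2 members rose and 2 fell, and no member changed its call (Slc2a1 adjusted p = 0.0811). The 9 ratios kept direction in all alternatives, and 6 passed with 5 counts added in place of 0.5. With 1 library left out the smallest exact p is 0.0571, and with the replicate block 0.125, so no ratio could pass there. Depth limits Hk3 in the controls, where 12 counts were seen in all.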
